A study of Mus musculus with 24 samples.

Results

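The genes described here encode proteins that make, release, receive and relay Hedgehog ligands: Ihh, Dhh, Hhat, Disp1, Boc, Cdon, Gas1, Smo, Sufu and Kif7. These 10 of 21938 protein-coding genes were taken as a named list, and their loci were defined as the mm10 gene body plus 20 kb on either side. The loci held 96 of 49679 H3K27ac peaks in WT forelimb buds and 100 of 43916 in Shh-/- forelimb buds. They held 56 of 36585 H3K4me2 peaks in WT and 68 of 38468 in Shh-/-, and 4 of 20830 H3K27me3 peaks in Shh-/-. In NIH3T3 cells they held 144 of 87779 H3K27ac peaks with purmorphamine and 156 of 90989 with DMSO.

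The forelimb buds came from E10.5 embryos with 32 to 35 somites on a Swiss Webster background, either wild type or homozygous for the Shh null allele. By the study's methods the WT controls mixed WT with heterozygous littermates, and buds of embryos from several litters were pooled, about 400000 cells for each immunoprecipitation. NIH3T3, a single established line of mouse embryonic fibroblasts that responds to Hedgehog agonists, was kept in low serum and treated for 48 h with 400 nM purmorphamine or with DMSO, and the labels give LIF for both groups. Each list was called on 2 replicates together against input, so each value below belongs to a pooled list, there is no spread between replicates, and no difference between lists was tested. No H3K27me3 list of WT buds was analysed here, and the limb and NIH3T3 samples used different H3K27ac antibodies.

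Hedgehog ligands are lipid-modified before secretion and bind the receptor PTCH1 together with co-receptors, which frees the transducer SMO to act in the primary cilium. SMO signalling stops SUFU and KIF7 from favouring the repressor forms of the GLI transcription factors, and GLI activators then bind the sequence GACCACCCA and its variants. In the limb bud the ligand is SHH from the posterior margin, while IHH acts later in cartilage and DHH mainly in gonads and nerves. Transcription of Gas1, Cdon and Boc is known to be lower in several tissues where the pathway is active. H3K27ac marks active promoters and enhancers, H3K4me2 marks promoters and enhancers whether active or poised, and H3K27me3 marks genes held by Polycomb.

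Most of the machinery genes carried H3K27ac at their starts with or without SHH. In Shh-/- buds, the only ones with an H3K27me3 list here, H3K27me3 lay at the starts of the ligand genes Ihh and Dhh. The peak at Dhh also spanned the start of the neighbouring gene Rhebl1. A difference in both systems was found at Smo, where a region upstream of the gene had H3K27ac peaks in WT but not in Shh-/- limb buds, and with purmorphamine but not with DMSO in NIH3T3 cells. In NIH3T3 cells the ligand-processing genes went opposite ways, with 30674 bp of H3K27ac at Hhat under purmorphamine against 16274 bp under DMSO, and 10650 bp at Disp1 against 28950 bp. Among members with at least 1000 bp of peaks in either list, only Disp1 reached 2-fold. Of all such loci 6.09% did so toward DMSO and 3.76% toward purmorphamine. Below that length, Kif7 had 900 bp with purmorphamine and 200 bp with DMSO. The start peaks of Hhat and Disp1 were alike in the 2 lists.

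Below, the rank of a peak is its place in its own list, with 1 the strongest by the peak caller's score, and its log2 ratio is the highest ratio of ChIP to input inside it. Both are relative to that list and its input. Coordinates are mm10.

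Markers of the tissue were read as H3K27ac peaks within 1 kb of the transcription start. All 5 limb mesenchyme markers had one in WT and in Shh-/- buds, none of the 3 limb ectoderm and 2 blood markers did, and all 3 fibroblast markers had one in both NIH3T3 lists. The muscle precursor genes Pax3 and Lbx1 had no such peak in WT and a peak for each in Shh-/-, and of 3 endothelial markers Cdh5 had one in WT and none did in Shh-/-. The part of these cells in the differences between genotypes below was not tested, and fewer cells with a mark cannot be told apart from less of the mark per cell. The start of Shh itself had an H3K4me2 peak in WT and none in Shh-/-.

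The starts acetylated in the limb were the same 7 in both genotypes. In WT buds 7 genes had an H3K27ac peak within 1 kb of the annotated 5′ end, beside 41.0% of all protein-coding genes, and in Shh-/- buds 7 did, beside 38.1%. The genes without one were Kif7, Ihh and Dhh in both genotypes. H3K4me2 lay at the starts of all 10 in WT, beside 60.8% of all genes, and of 9 in Shh-/-, beside 60.3%, with Dhh the exception. H3K27me3, listed for Shh-/- buds only, lay at 2 starts, those of Ihh and Dhh, beside 11.5% of all genes. In NIH3T3 cells 8 starts were acetylated with purmorphamine and the same 8 with DMSO, each beside 50.0% of all genes, again without Ihh and Dhh.

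**Figure D1:**
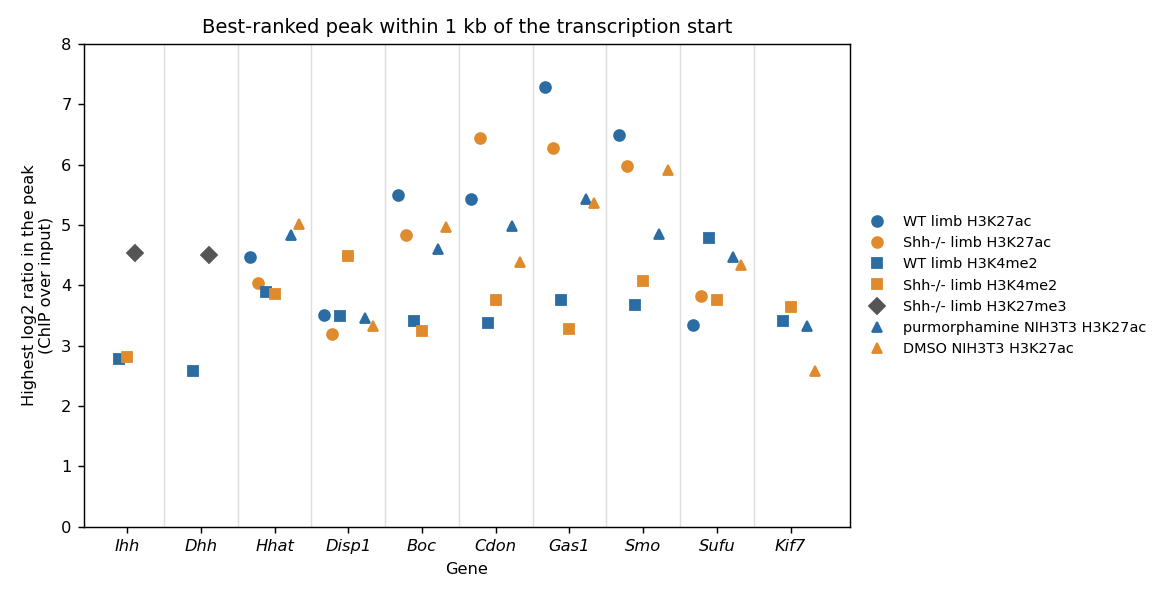
Highest log2 ratio of ChIP to input (y axis) in the best-ranked peak within 1 kb of each gene's transcription start (x axis), by list: circles are limb H3K27ac, squares limb H3K4me2, the diamond limb H3K27me3 and triangles NIH3T3 H3K27ac, and a missing symbol means no peak. Gas1 in WT has the highest value, 7.28, Ihh and Dhh have the only H3K27me3 symbols, and there are no error bars because each list pools its replicates.

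Of the peaks at the 10 loci, those without an overlapping peak in the paired list (WT-only, Shh-/--only, purmorphamine-only or DMSO-only, together called unshared) were counted beside the whole lists. Shared means an overlap of at least 1 bp, so unshared means no overlapping call and is not a tested loss. The paper instead compared reads over merged peaks. By that measure it reported most H3K27ac regions present in both genotypes, with a subset reduced or lost in Shh-/-, and H3K4me2 almost unchanged. In WT buds 36 of 96 H3K27ac peaks had no overlap in Shh-/-, 37.5% (95% Wilson interval 28.5 to 47.5), beside 48.5% of the whole list. In Shh-/- buds 41 of 100 had none in WT, 41.0% (31.9 to 50.8), beside 38.4%. For H3K4me2 the shares were 14 of 56 in WT, 25.0% (15.5 to 37.7) beside 25.7%, and 22 of 68 in Shh-/-, 32.4% (22.4 to 44.2) beside 22.5%. These intervals cover counting error only, and neighbouring peaks of a locus are not independent. The value of the whole WT H3K27ac list lay above the interval of the loci, the difference was not tested, and without Disp1 the share at the loci was 27 of 66, 40.9%. The other limb shares had the value of their list inside their interval.

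The unshared peaks were short and weak. In WT buds their median width was 150 bp against 450 bp for shared peaks, with median log2 ratios of 2.83 and 3.40, and in Shh-/- buds the medians were 150 and 450 bp, with 2.81 and 3.51. Each list was therefore also read in its better-ranked 50%. There 5 of 49 WT H3K27ac peaks were unshared, beside 24.9% of that part of the whole list, and 13 of 57 in Shh-/-, beside 17.3%. For H3K4me2 the counts were 0 of 26 in WT, beside 3.59%, and 5 of 33 in Shh-/-, beside 4.03%. Better-ranked acetylated peaks of Shh-/- alone thus outnumbered those of WT alone at these loci, with 5 of the 13 acetylated ones at Disp1, 2 each at Sufu, Boc and Cdon, and 1 each at Gas1 and Hhat.

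By length covered, no member locus with at least 1000 bp of peaks in either list differed 2-fold between genotypes. Below that length, Ihh had 0 bp of H3K27ac in WT and 200 bp in Shh-/-. Among loci with at least 1000 bp of peaks in either list, 0 of 8 members had at least 2 times the H3K27ac length in WT as in Shh-/-, beside 10.7% of all such loci, and 0 of 8 the reverse, beside 1.10%. For H3K4me2 the counts were 0 of 10 in each direction, beside 1.93% with more in WT and 0.260% with more in Shh-/-. The H3K27ac length was longer in WT at Dhh, Hhat, Smo and Sufu and longer in Shh-/- at Ihh, Disp1, Boc, Cdon and Gas1. At the co-receptor genes these lengths were 4050 bp in WT and 4500 bp in Shh-/- at Boc, 8550 and 11500 bp at Cdon and 6400 and 7150 bp at Gas1. The strength of the start peak gave another order at Gas1, with a log2 ratio of 7.28 in WT and 6.28 in Shh-/-, and at Boc, with 5.49 and 4.83, while at Cdon it was 5.43 and 6.45. The H3K4me2 length was likewise longer in Shh-/- at Cdon (3100 bp in WT, 4100 bp in Shh-/-) and longer in WT at Boc (3250 and 2550 bp) and Gas1 (3800 and 2050 bp).

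**Figure D2:**
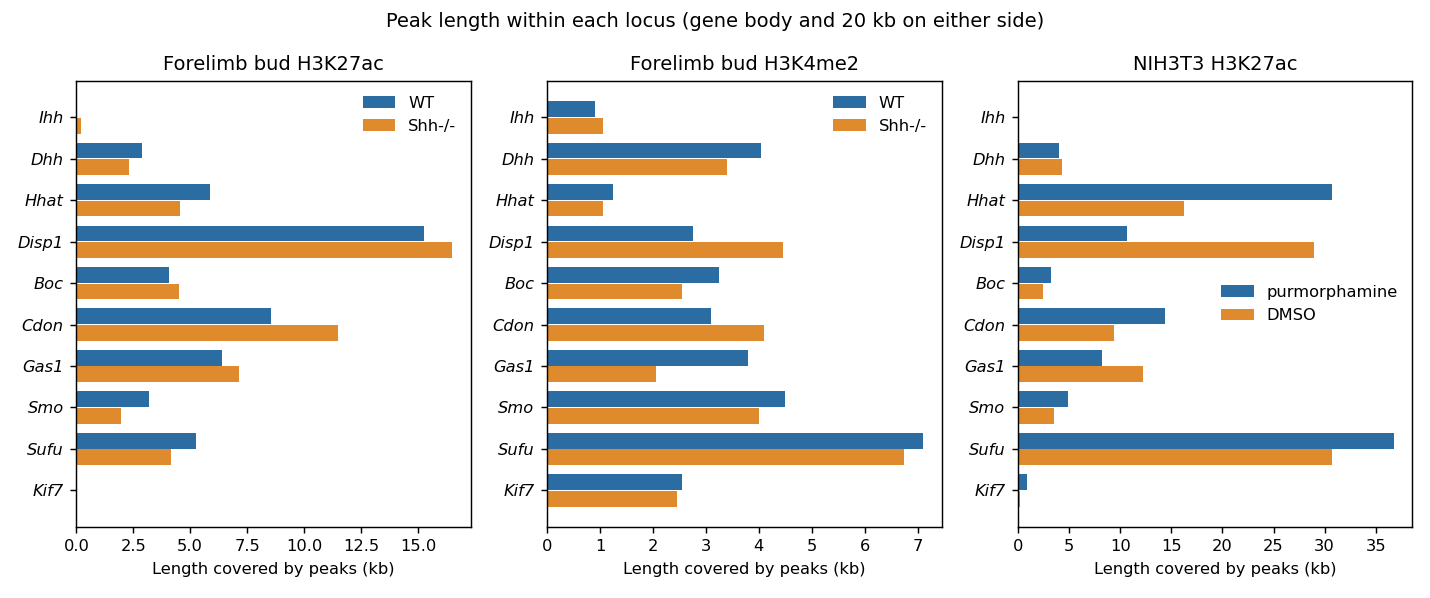
Length in kb covered by peaks (x axis) within each locus of gene body plus 20 kb (y axis, ordered by role from ligands to GLI regulators), for limb H3K27ac, limb H3K4me2 and NIH3T3 H3K27ac. In the limb panels no locus with at least 1000 bp of peaks differs 2-fold, though Gas1 H3K4me2 covers 3800 bp in WT and 2050 bp in Shh-/-. In NIH3T3 cells Hhat is longer with purmorphamine (30674 bp against 16274 bp, less than 2-fold). Disp1 is longer with DMSO (28950 bp against 10650 bp, more than 2-fold).

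Of the ligand genes, Ihh (chr1:74945315-74951672, minus strand) had the marks of a Polycomb-held gene in Shh-/- buds. A 5300 bp H3K27me3 peak covered its start from 2177 bp upstream to 3122 bp into the gene, at rank 408 of the list with a log2 ratio of 4.54, and 1.15% of the list's peaks were wider. Inside that peak H3K4me2 covered 500 bp in WT and 500 bp in Shh-/-, and H3K27ac covered 0 bp in both. H3K27me3 and H3K4me2 peaks thus lay on the same start in Shh-/- lists, and lists of pooled cells do not show whether the same chromosomes carried both. Another H3K27me3 peak of 1000 bp at rank 1862 followed within the gene, and one of 200 bp upstream was weak (rank 15478, FDR 0.150).

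The H3K4me2 peaks at the Ihh start were weak in both genotypes, with a rank of 22875 and log2 ratio of 2.78 in WT and a rank of 25290 and 2.81 in Shh-/-. No H3K27ac peak lay in the Ihh locus in WT buds or in either NIH3T3 list. The Shh-/- list had 1, of 200 bp at 13.8 kb upstream (rank 22071, log2 ratio 3.01), and no WT peak lay within 148150 bp of it. An H3K4me2 peak 13.0 kb upstream was present in WT (250 bp, rank 13827) and in Shh-/- (150 bp, rank 33948).

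Dhh (chr15:98891152-98898540, minus strand) had the widest H3K27me3 peak of the set. It covered 6300 bp from 909 bp upstream to 5390 bp downstream of the start, at rank 428 with a log2 ratio of 4.51, and 0.835% of the list's peaks were wider. The same peak spanned the start of Rhebl1, a small GTPase gene that overlaps Dhh, so it cannot be assigned to either gene. H3K4me2 covered 1200 bp of it in WT and 850 bp in Shh-/-, of which peaks of 800 and 600 bp overlapped Rhebl1, and H3K27ac covered 0 bp in both. At the Dhh start itself the H3K4me2 list had a 200 bp peak in WT (rank 26246, log2 ratio 2.58) and none in Shh-/-. None of the H3K27ac peaks of the Dhh locus was nearest to the Dhh start: the nearest starts were those of Kmt2d, Rhebl1 and Lmbr1l, and the best-ranked limb peak (rank 51 in WT, 1301 in Shh-/-) overlapped Kmt2d, a histone methyltransferase gene. The unshared peaks of the better-ranked 50% also lay by these neighbours, 1 H3K27ac peak in WT (350 bp, rank 20736) and 2 H3K4me2 peaks in Shh-/- (300 bp at rank 18864 and 250 bp at rank 11682).

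**Figure D3:**
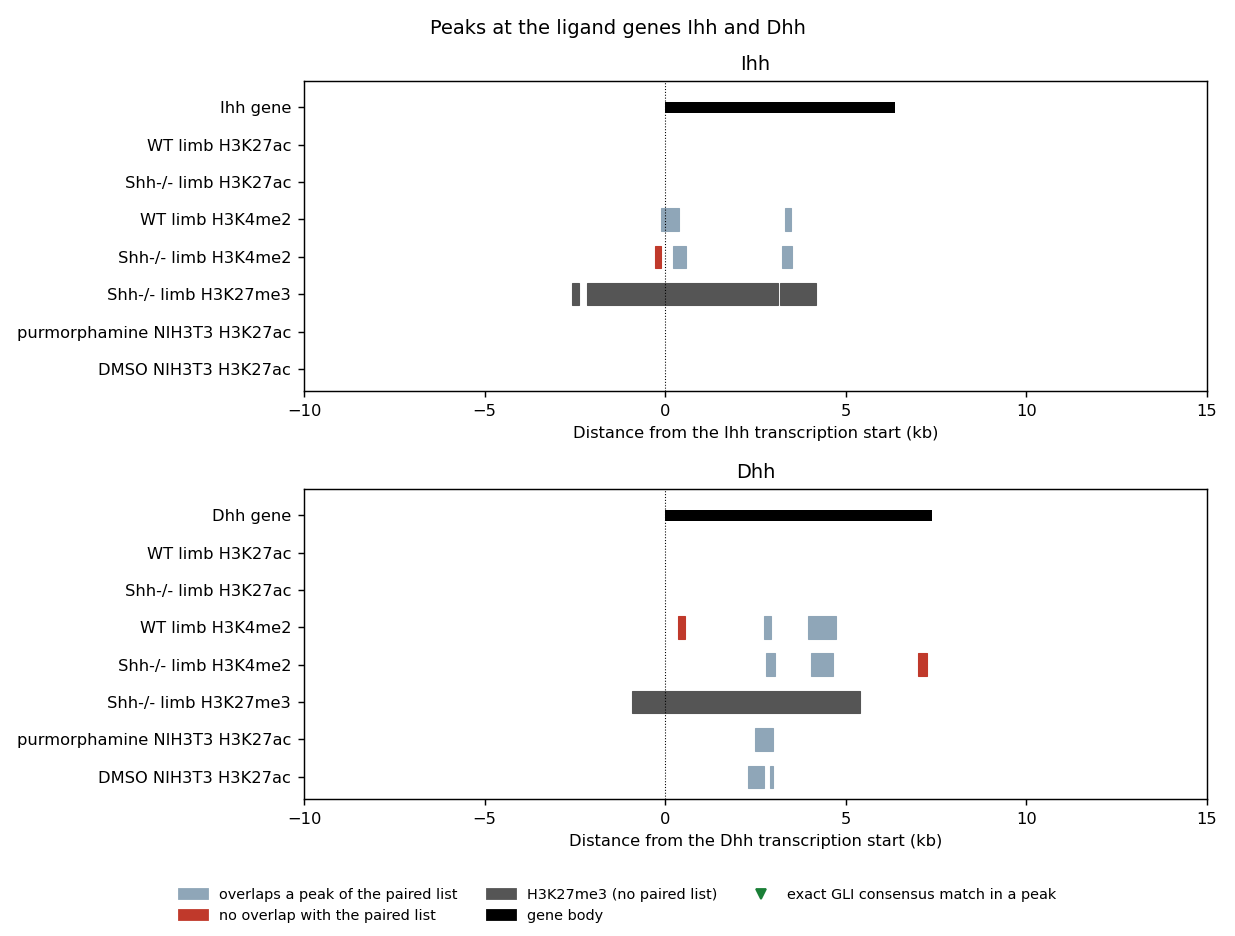
Peaks of the 7 lists (rows) from 10 kb before to 15 kb after the transcription starts of Ihh and Dhh (x axis, kb from the start in the direction of transcription). H3K27me3 (dark grey) spans both starts with H3K4me2 inside it, no limb H3K27ac peak lies in either window, and the NIH3T3 peaks at Dhh sit between 2291 and 2990 bp into the gene.

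The starts of Ihh, Dhh and Kif7, which lacked limb H3K27ac, are shown with each CG dinucleotide in capitals, because Polycomb and H3K4 methylation are both known at CG-rich starts. The sequences are RefSeq promoters of GRCm38.p6, 250 bases before to 50 after the start, read on the minus strand at chr1:74951623-74951922, chr15:98898491-98898790 and chr7:79715658-79715957. RefSeq entries matched 9 of the 10 genes, and Boc had none.

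Ihh promoter: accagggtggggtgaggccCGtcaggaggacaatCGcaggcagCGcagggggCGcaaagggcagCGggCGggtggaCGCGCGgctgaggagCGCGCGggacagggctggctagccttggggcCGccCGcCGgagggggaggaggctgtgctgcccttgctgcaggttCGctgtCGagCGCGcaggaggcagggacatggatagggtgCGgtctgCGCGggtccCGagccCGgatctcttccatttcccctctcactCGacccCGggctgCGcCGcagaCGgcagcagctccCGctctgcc

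Dhh promoter: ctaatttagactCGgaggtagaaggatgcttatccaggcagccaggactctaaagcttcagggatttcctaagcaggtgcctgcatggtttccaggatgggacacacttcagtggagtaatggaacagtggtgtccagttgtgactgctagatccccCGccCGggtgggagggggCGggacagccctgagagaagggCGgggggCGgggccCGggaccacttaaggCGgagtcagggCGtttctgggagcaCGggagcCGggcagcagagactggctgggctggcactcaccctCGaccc

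Kif7 promoter: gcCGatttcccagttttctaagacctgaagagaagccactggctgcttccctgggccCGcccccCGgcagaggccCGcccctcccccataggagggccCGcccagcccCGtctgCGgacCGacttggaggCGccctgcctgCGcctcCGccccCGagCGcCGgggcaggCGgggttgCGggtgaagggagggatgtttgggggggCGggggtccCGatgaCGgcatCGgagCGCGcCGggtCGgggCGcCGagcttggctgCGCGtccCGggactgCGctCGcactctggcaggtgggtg

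The Ihh promoter held 30 CG dinucleotides, the Dhh promoter 12 and the Kif7 promoter 31, and the median of 32851 RefSeq promoters was 7. As many as at Ihh were found in 11.7% of promoters, as many as at Dhh in 39.6% and as many as at Kif7 in 10.6%. H3K27me3 covered all 300 bases at Ihh and at Dhh and 0 at Kif7. Kif7 thus had a start about as rich in CG as that of Ihh, with H3K4me2 and without an H3K27me3 peak.

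Hhat (chr1:192496711-192771223), the acyltransferase that palmitoylates Hedgehog ligands, was acetylated at its start in all 4 H3K27ac lists. In the limb the start peak was 1550 bp wide at rank 6041 in WT and 1400 bp at rank 7028 in Shh-/-, and H3K4me2 lay there in both genotypes (ranks 6042 and 6900). The limb loci differed little, with 11 H3K27ac peaks over 5850 bp in WT and 9 over 4550 bp in Shh-/-. Of these, 6 WT peaks were unshared, 1 of them in the better-ranked 50% (350 bp at 13.9 kb upstream, rank 22034), and 2 Shh-/- peaks, 1 of them in the better-ranked 50% (250 bp at 98.9 kb into the gene, rank 20551).

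In NIH3T3 cells the start peak of Hhat was alike in both lists, 3150 bp with a log2 ratio of 4.84 under purmorphamine and 2650 bp with 5.01 under DMSO. Around it the lists differed: the locus held 37 peaks with purmorphamine and 18 with DMSO. Of the 37, 27 had no overlap in the DMSO list, 6 of them in the better-ranked 50% (ranks 29853 to 41555, log2 ratios 2.80 to 3.17), and of the 18 DMSO peaks 0 were unshared. A single purmorphamine peak of 13900 bp at rank 245, from 25.4 to 11.5 kb upstream, overlapped 4 DMSO peaks, of 150, 400, 3650 and 5600 bp at ranks 81143, 30380, 2166 and 6076. Every DMSO peak of the locus thus overlapped a purmorphamine peak, and the purmorphamine list had further and wider peaks.

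Disp1 (chr1:183086266-183221522), the transporter that releases cholesterol-modified ligand from the cell, had the most limb peaks of the set, 30 in WT over 15250 bp and 38 in Shh-/- over 16500 bp. The strongest were shared intronic peaks, at rank 1727 in WT, 32.3 kb into the gene, and at rank 703 in Shh-/-, 30.9 kb into the gene. At the start H3K27ac was weaker, with ranks of 15884 and 17502 and log2 ratios of 3.51 and 3.20. H3K4me2 at the start stood at rank 11790 in WT and 1580 in Shh-/-, with log2 ratios of 3.49 and 4.48. Of the peaks in the better-ranked 50%, 1 H3K27ac peak was in WT alone, 5 H3K27ac and 2 H3K4me2 peaks were in Shh-/- alone, and all 8 lay in introns.

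In NIH3T3 cells Disp1 went the other way from Hhat. The start peaks were alike, 700 bp with a log2 ratio of 3.46 under purmorphamine and 750 bp with 3.32 under DMSO. The locus held 19 peaks over 10650 bp with purmorphamine and 48 over 28950 bp with DMSO. Of the 48, 34 had no overlap in the purmorphamine list, 12 of them in the better-ranked 50% (ranks 28649 to 41730, log2 ratios 2.71 to 3.23), while 1 of the 19 purmorphamine peaks was unshared. Of the members, 8 had at least 1000 bp of peaks in either list. Among these Disp1 was the 1 with at least 2 times the length in DMSO as with purmorphamine, beside 6.09% of all such loci. The reverse was found at 0 of 8, beside 3.76%. Kif7, below that length, had 900 bp with purmorphamine and 200 bp with DMSO.

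**Figure D4:**
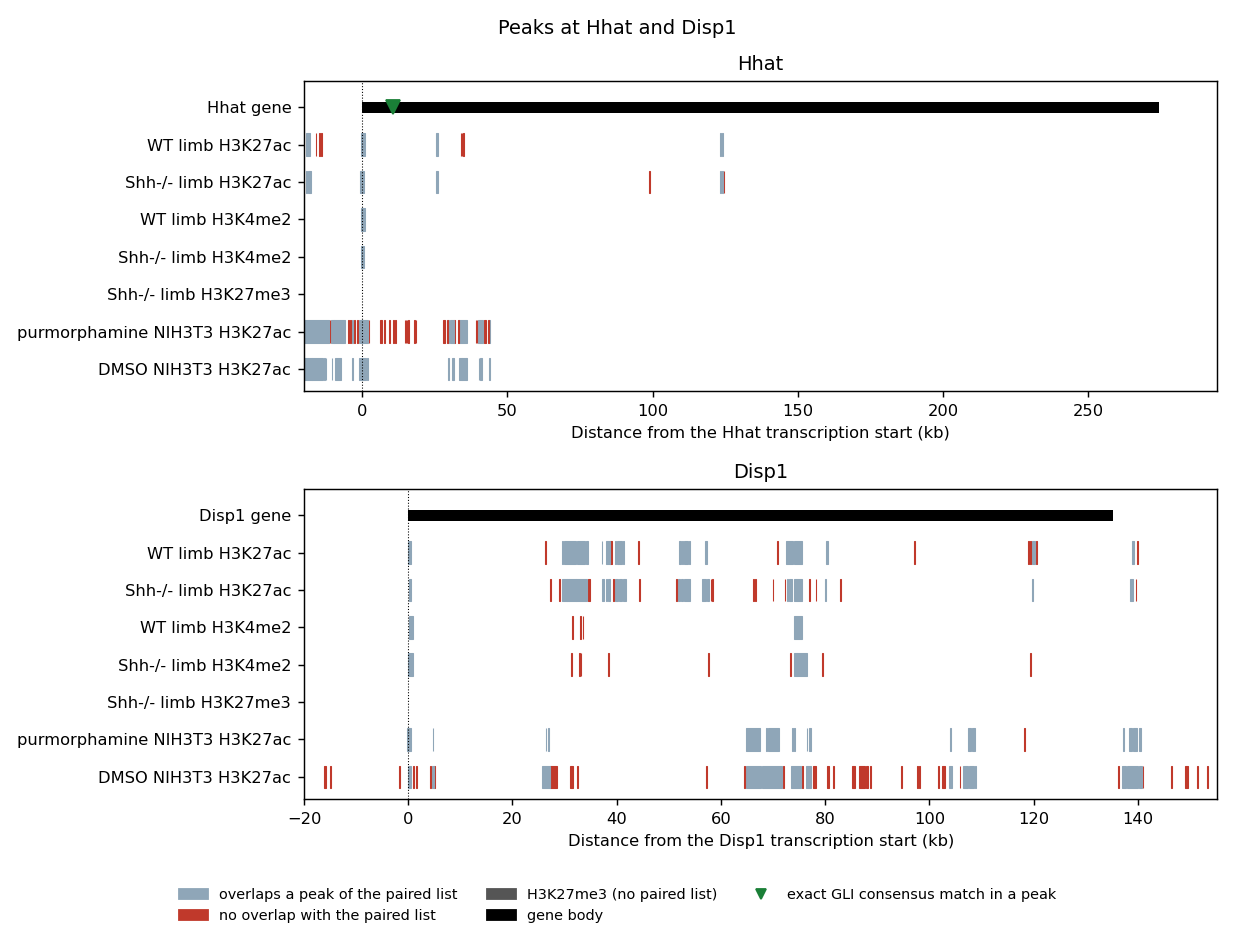
Peaks of the 7 lists (rows) across the Hhat and Disp1 loci (x axis, kb from the transcription start in the direction of transcription), in red where the paired list has no overlapping peak. At Hhat the red NIH3T3 peaks are all in the purmorphamine row (27 of 37 peaks), and at Disp1 34 of 48 DMSO peaks and 1 of 19 purmorphamine peaks are red.

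These 2 loci set much of the NIH3T3 total. Over all 10 loci 66 of 144 purmorphamine peaks were unshared, 45.8% (95% Wilson interval 37.9 to 54.0) beside 36.5% of the whole list, and without Hhat the share was 36.4%. Of the DMSO peaks 59 of 156 were unshared, 37.8% (30.6 to 45.6) beside 41.1%, and without Disp1 23.1%. In the better-ranked 50% the counts were 12 of 66 with purmorphamine, beside 16.0%, and 15 of 73 with DMSO, beside 16.9%, and 12 of those 15 were at Disp1. Purmorphamine-only peaks at the 10 loci had a median width of 200 bp and a median log2 ratio of 2.47, against 700 bp and 3.30 for shared peaks.

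Among the co-receptors, Gas1 (chr13:60174405-60177365), a membrane-anchored protein that binds SHH, had the highest H3K27ac log2 ratio of any start of the set in the WT list, and in the Shh-/- list it came after Cdon. In WT a 4750 bp peak at rank 19 of 49679 covered the whole gene with a log2 ratio of 7.28. In Shh-/- the same stretch was called as peaks of 4100 and 1650 bp at ranks 216 and 846, with log2 ratios of 6.28 and 5.63. Acetylation of Gas1 was thus near the top of both lists. H3K4me2 at the start was weaker, with a best log2 ratio of 3.76 in WT and 3.27 in Shh-/-, and the 300 and 750 bp WT peaks just inside the gene had no Shh-/- partner.

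The best-ranked Shh-/--only H3K27ac peak of all 10 loci lay 20.6 kb downstream of the Gas1 start, 400 bp wide at rank 6492 with a log2 ratio of 4.11. No WT peak lay within 8300 bp, and the Shh-/- H3K4me2 list had a 100 bp peak inside it (rank 33216) that the WT list lacked. The nearest protein-coding start was that of Gas1. In NIH3T3 cells the start was covered by 5000 and 2200 bp peaks with purmorphamine (ranks 214 and 1586) and by a single 7900 bp peak with DMSO (rank 111), with log2 ratios of 5.43, 4.95 and 5.36. The DMSO list had 12 further unshared peaks there of at most 600 bp, none in the better-ranked 50%.

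Cdon (chr9:35421128-35507652), an immunoglobulin-family co-receptor, had its start peak nearer the top of the list in Shh-/- than in WT. In Shh-/- a single 4400 bp peak at rank 130 with a log2 ratio of 6.45 ran from the start into the gene. In WT the same stretch was called as 6 peaks, 1850 bp at the start at rank 1939 with a log2 ratio of 5.43 and 5 more of 100 to 700 bp. An intronic region 21.6 kb into the gene was called as peaks of 1100 and 1050 bp at ranks 4287 and 8120 in WT and as a single 2150 bp peak at rank 1650 in Shh-/-. The covered lengths of these stretches were thus close, and the calls differed in rank and in how they were split. H3K4me2 differed along the gene. Just upstream of the start a 400 bp peak was at rank 13832 with a log2 ratio of 3.37 in WT and at rank 20515 with 3.05 in Shh-/-, and WT peaks of 450 and 200 bp inside the start had no Shh-/- partner. From 922 bp into the gene the order turned, with 1450 bp at rank 16068 in WT and 1800 bp at rank 8389 in Shh-/-, and 2.82 kb in a 600 bp Shh-/- peak at rank 2898 overlapped WT peaks of 200 and 150 bp at ranks 25627 and 33607. Unshared H3K27ac peaks of the better-ranked 50% were a 200 bp intronic peak in WT (rank 16023) and, in Shh-/-, peaks of 300 and 350 bp at 16.0 and 9.03 kb upstream (ranks 21190 and 18599). In NIH3T3 cells the start was called at rank 1382 with purmorphamine and 4475 with DMSO, and the 17 purmorphamine-only peaks of the locus included 2 in the better-ranked 50%, both intronic.

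Boc (chr16:44485049-44558897), the paralogue of Cdon, was acetylated at its start in all 4 lists, with 2650 bp at rank 1788 in WT, 2000 bp at rank 2868 in Shh-/-, and 1750 bp in both NIH3T3 lists (rank 5642 with purmorphamine, 2946 with DMSO). An intronic region 27.1 kb into the gene ranked far apart. There Shh-/- buds had an 800 bp peak at rank 1823 with a log2 ratio of 5.16 and WT peaks of 400 and 150 bp at ranks 31286 and 46563 with 2.90 and 2.51. Next to it a 250 bp peak at rank 8608 was called in Shh-/- alone, as was a 250 bp peak 1353 to 1602 bp upstream of the start at rank 11956. Boc thus had its best-ranked limb H3K27ac peak at the start in WT and in that intron in Shh-/-.

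Smo (chr6:29735503-29761365, plus strand), which encodes the transducer of the pathway and the target of purmorphamine, was strongly acetylated at its start in every list. The log2 ratio was 6.49 in WT (1850 bp, rank 276) and 5.97 in Shh-/- (1300 bp, rank 424). In NIH3T3 cells it was 4.85 with purmorphamine (1900 bp, rank 2225) and 5.92 with DMSO (1950 bp, rank 10 of 90989). H3K4me2 flanked the start in both genotypes, with best ranks of 9090 and 4410 within 1 kb. The start was therefore acetylated with and without a Hedgehog signal, with a log2 ratio and rank nearer the top in WT than in Shh-/- buds and with DMSO than with purmorphamine.

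The upstream region of Smo differed in both systems. In WT buds H3K27ac peaks of 100 and 550 bp lay at chr6:29718650-29718749 and chr6:29719000-29719549, and the nearest Shh-/- peak was 15600 bp away. These were weak calls, at rank 45721 (FDR 0.0340, log2 ratio 2.54) and rank 29039 (FDR 0.00288, log2 ratio 2.96). In NIH3T3 cells purmorphamine gave peaks of 450 and 500 bp at chr6:29718450-29718899 and chr6:29719100-29719599, at ranks 32242 and 16625 with log2 ratios of 3.04 and 3.68, and no DMSO peak lay within 15150 bp. H3K4me2 was present in both genotypes, at rank 11859 with a log2 ratio of 3.49 in WT and at rank 1126 with 4.58 in Shh-/-. Beside it a 250 bp H3K4me2 peak at chr6:29718150-29718399 (rank 18750, log2 ratio 3.04) was called in WT alone. The region thus had H3K4me2 in Shh-/- buds, in which no H3K27ac peak was called there, and a further H3K4me2 peak in WT.

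Both WT-only peaks upstream of Smo overlapped a purmorphamine-only peak. The other WT-only peak of the Smo locus, 100 bp in Ahcyl2 (rank 38498), overlapped none. Of the 36 WT-only peaks of the 10 loci, 2 overlapped a purmorphamine-only peak, both of them upstream of Smo, beside 2.81% of WT-only peaks in the whole list. With H3K4me2 of both genotypes required as well, 1 of 36 was left, the 550 bp peak, beside 0.274% of the whole list. These criteria were set after the values at Smo were seen. The 550 bp peak lay outside annotated genes, between Tspan33 and Smo, and the nearest protein-coding start was that of Smo. More generally 52 of 96 WT H3K27ac peaks of the loci, 54.2%, overlapped an NIH3T3 peak, beside 41.6% of the whole list, from 6 of 6 at Gas1 and 10 of 11 at Sufu to 11 of 30 at Disp1 and 7 of 21 at Cdon.

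The GLI consensus GACCACCCA was searched on both strands (TGGGTGGTC on the other strand) as an exact match inside the peaks of all 7 lists. It was found at 2 positions in the 10 loci, given here as 300-base windows of the peaks on the minus strand, with the match in capitals. The Smo window is chr6:29719000-29719299, the end of the WT-only peak away from the gene, and the Hhat window is chr1:192760320-192760619, inside a purmorphamine-only peak of an intron.

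Smo upstream region: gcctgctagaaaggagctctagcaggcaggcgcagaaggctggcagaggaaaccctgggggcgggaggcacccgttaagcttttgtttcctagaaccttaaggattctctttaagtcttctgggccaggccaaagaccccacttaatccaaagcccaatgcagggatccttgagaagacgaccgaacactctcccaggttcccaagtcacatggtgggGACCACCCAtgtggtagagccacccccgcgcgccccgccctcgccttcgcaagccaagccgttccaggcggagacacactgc

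Hhat intronic peak: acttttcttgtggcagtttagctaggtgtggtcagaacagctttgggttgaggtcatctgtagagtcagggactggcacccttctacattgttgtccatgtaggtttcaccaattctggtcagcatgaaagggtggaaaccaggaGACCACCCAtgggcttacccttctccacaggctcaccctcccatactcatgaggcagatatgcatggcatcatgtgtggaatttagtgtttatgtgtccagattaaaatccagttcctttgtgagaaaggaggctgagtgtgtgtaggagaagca

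The match at Smo (chr6:29719073-29719081) lay 16430 bp upstream of the start, inside the WT-only H3K27ac peak and the H3K4me2 peaks of both genotypes. It fell between the purmorphamine-only peaks, 19 bp before the second, so no NIH3T3 peak contained it. The match at Hhat (chr1:192760466-192760474) lay 10757 bp into the gene, in a 400 bp peak at rank 41555 with a log2 ratio of 2.80, and the nearest DMSO peak was 8650 bp away. The share of all peaks with a match was 0.401% in WT and 0.266% in Shh-/- H3K27ac, 0.620% and 0.502% in H3K4me2, 0.528% in H3K27me3, and 0.725% with purmorphamine and 0.592% with DMSO. A match of these letters is no evidence of binding. None of the 10 RefSeq promoter windows held one, but these windows came from 9 genes and do not cover every start. Boc had no window, the Cdon window lay 30948 bp from the start used here, and Disp1 had a further window inside the gene.

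**Figure D5:**
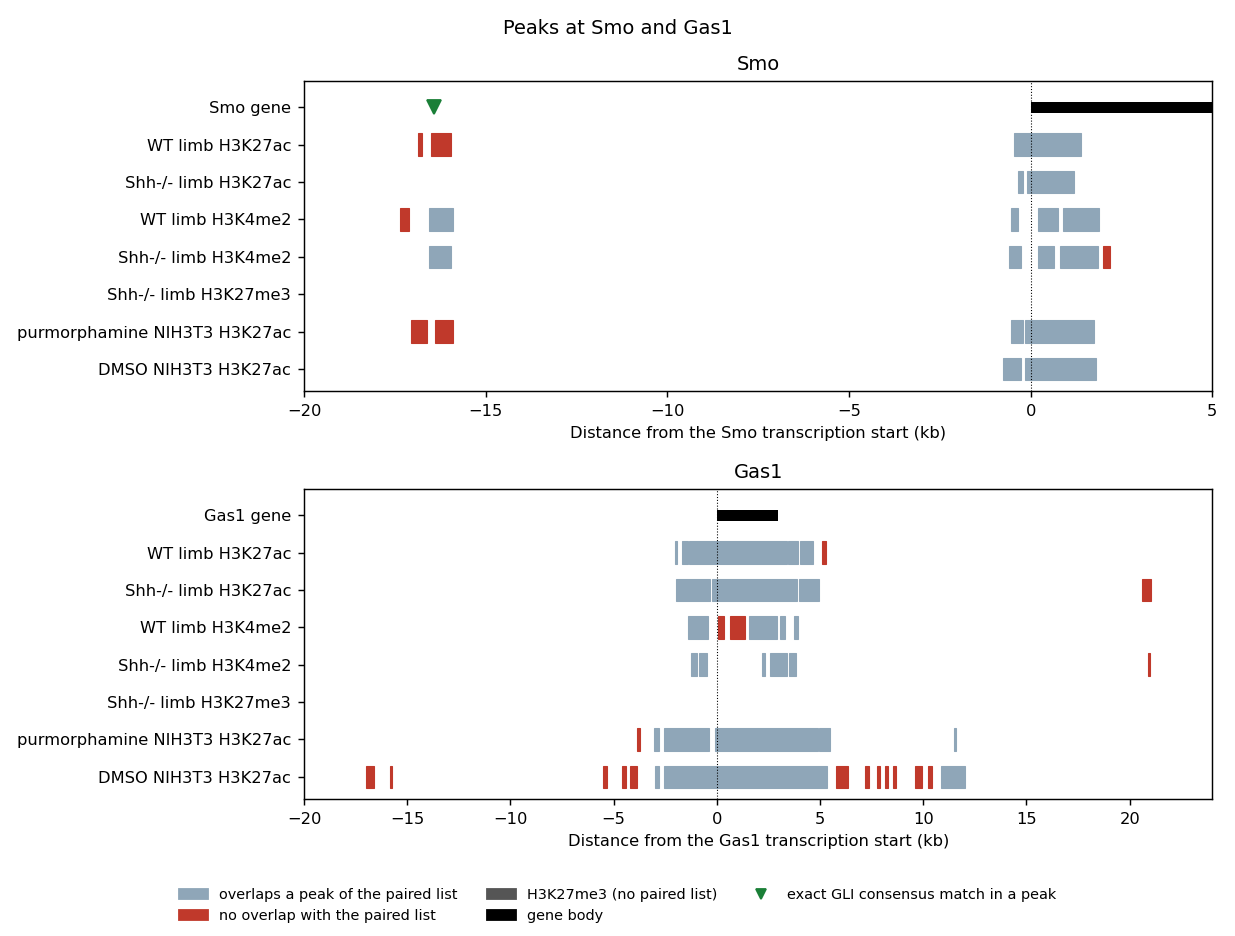
Peaks of the 7 lists (rows) around the transcription starts of Smo and Gas1 (x axis, kb from the start in the direction of transcription), in red where the paired list has no overlapping peak, with the exact GLI consensus match as a triangle. About 16 kb upstream of Smo the WT and purmorphamine rows have red H3K27ac peaks, the Shh-/- and DMSO rows have none, and H3K4me2 is present in both genotypes, while the Shh-/--only peak at Gas1 lies 20.6 kb downstream.

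Sufu (chr19:46396896-46488804), the cytoplasmic inhibitor that binds GLI proteins, had modest limb acetylation at its start, 350 bp at rank 18685 in WT and 300 bp at rank 8977 in Shh-/-. H3K4me2 was strong beside it, with a 1000 bp peak at rank 466 in WT and peaks of 550 and 600 bp at ranks 8804 and 8432 in Shh-/-. The unshared limb H3K27ac peaks of the better-ranked 50% were a 500 bp intronic peak in WT (rank 11134) and, in Shh-/-, a 150 bp intronic peak (rank 21002) and a 300 bp peak at Trim8 (rank 17482). In NIH3T3 cells the start was at rank 4772 with purmorphamine and 6646 with DMSO. The best-ranked H3K27ac peak of the locus in each of the 4 lists, and the best-ranked H3K4me2 peak in Shh-/-, lay 103 to 109 kb downstream of the Sufu start and nearest to Trim8, a ubiquitin ligase gene. In WT the best-ranked H3K4me2 peak was that at Sufu, ahead of one at Trim8 at rank 564. NIH3T3 lists also had long peaks over the 3′ portion of Sufu, among them 10500 bp at rank 1785 with purmorphamine, which overlapped 5 DMSO peaks of 200 to 4800 bp.

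Kif7 (chr7:79698098-79715720), a ciliary kinesin that acts on GLI processing, had no H3K27ac peak anywhere in its locus in either limb list. H3K4me2 lay at its start in both genotypes, 750 bp at rank 13095 with a log2 ratio of 3.41 in WT and 750 bp at rank 10168 with 3.65 in Shh-/-. Kif7 and Ihh were the 2 members with H3K4me2 at the start in both genotypes and no limb H3K27ac there, as were 30.2% of all genes with H3K4me2 in both. In NIH3T3 cells the Kif7 start was acetylated, over 750 bp at rank 23872 with a log2 ratio of 3.32 with purmorphamine and over 200 bp at rank 56655 with 2.58 with DMSO. An absent peak means that no call passed the authors' limits, and the read depth behind these calls is not known from the lists.

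For reference, 35 other Hedgehog pathway genes were counted in the same way. Of these, 25 had H3K27ac at the start in WT, beside 41.0% of all genes, and 21 in Shh-/-, beside 38.1%. Ptch1, Gli1, Stk36 and Ift88 were the 4 with a peak in WT alone, named after their values were seen. The share of all genes with a start peak in WT alone was not counted. H3K4me2 lay at 34 starts in WT and 33 in Shh-/-, H3K27me3 at 7, and NIH3T3 H3K27ac at 25 with purmorphamine and 24 with DMSO. Their unshared H3K27ac peaks were 99 of 224 in WT, 44.2% (37.8 to 50.7), and 45 of 180 in Shh-/-, 25.0% (19.2 to 31.8). At the 10 loci described above the corresponding shares were 37.5% and 41.0%, and in the whole lists 48.5% and 38.4%.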

How the data were processed

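The data were lists of H3K27ac, H3K4me2 and H3K27me3 ChIP-seq peaks on mm10 (GRCm38). The submitters' processing notes name Bowtie2 2.2.5, and by the study's methods the authors called peaks with CisGenome, both replicates of a condition together against input. Each deposited peak has a rank and the FDR (a q-value) given by the authors' caller. The deposited score, a statistic of ChIP against input, orders the ranks. The other deposited measures are the highest log2 ratio over input inside the peak and −log10 of the lowest Poisson p-value there. Scores were at least 3.00 and −log10 values lay between 5.00 and 100 in every list, while the highest FDR ranged from 0.000805 to 0.255. The lists thus shared no FDR limit, and the authors' filter for them is not stated in the sources used here. The paper gives an FDR below 0.05 for its called peaks, and 47.2% of the H3K27me3 list used here met that. The deposited values are relative to each list's own input, so ranks and log2 ratios set side by side across lists are descriptions only. Reads per library were not used here, and the depth behind a call is unknown.

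Groups were taken from the sample labels. Gene models came from GENCODE vM21 basic, sequences from RefSeq GRCm38.p6, whose chromosome lengths contain every peak. Peaks on unplaced scaffolds (0 to 34 per list) were left out. A locus was a gene body plus 20 kb on either side, a start peak lay within 1 kb of the gene's 5′ end, and a peak was shared when at least 1 bp overlapped the paired list. Overlaps were checked against bedtools 2.31.1 and motif searches on simulated sequence (Python 3.11.15, pysam 0.24.0). Wilson intervals at 95% (statsmodels 0.14.6) cover counting error only. No test was made, because a list has no replicates. All 10 members are described, with start peaks, wide and best-ranked peaks, unshared peaks in the better-ranked 50% of their list and peaks with a GLI match. Not every peak of these kinds is named. Unshared better-ranked peaks left out include an H3K4me2 peak in Shh-/- at Cdon (rank 15731) and NIH3T3 peaks at Boc and Sufu. 1 gene of the list of other pathway genes is not reported here and was left out of its counts. The members and lists were chosen with earlier results of these data known. Alternatives changed the overlap, list threshold, flank, start window, counting unit and motif mismatches.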

Additional observations from a re-analysis of the deposited data

How the results depend on the processing

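Of 85 results recomputed under the alternatives, 61 stayed inside the Wilson interval of the value given above (for counts, within 1.5 times) and 24 moved. All unshared shares rested on the overlap and threshold chosen. The shares below are those of the 10 loci. For the whole lists only the better-ranked 50% was recomputed, with values given above. The other settings have no whole-list share to set beside them, and the main whole-list shares do not apply to them. With at least 50% of a peak covered required, the share was 51.0% for Shh-/- H3K27ac, 39.3% for WT H3K4me2, 54.9% for purmorphamine and 46.8% for DMSO. When a peak within 500 bp counted as shared, it was 26.0% for WT and 23.0% for Shh-/- H3K27ac, 7.14% for WT and 17.6% for Shh-/- H3K4me2, 31.9% for purmorphamine and 26.9% for DMSO. In the better-ranked 50% it was 10.2% and 22.8% for WT and Shh-/- H3K27ac, 0% and 15.2% for H3K4me2, 18.2% for purmorphamine and 20.5% for DMSO. In base pairs it was 30.8% for Shh-/- H3K27ac, 31.3% for purmorphamine and 26.9% for DMSO, and with only peaks nearest to a member's start the DMSO share was 48.0%. With the start base itself covered, the members counted fell to 4 for WT and 2 for Shh-/- H3K4me2 and to 5 for DMSO H3K27ac. Peaks with a GLI match rose from 4 to 83 with up to 1 mismatch and were 6 with peaks widened by 200 bp, which brought in both purmorphamine peaks upstream of Smo.

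The lists pool 2 replicates, so no replicate was left out. No paired analysis was possible because no list has values per replicate. An absent peak means only that no call passed the limits of that list, and the depth behind those limits is unknown. Unshared peaks were mostly short, and neighbouring calls of a locus were counted separately. A flank can hold other genes' elements, as at Dhh, Sufu and Smo.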
